A study of Homo sapiens with 6 samples.

Results

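The mitochondrial ribosomal protein genes were taken as all protein-coding genes with a name made of MRPL or MRPS and a number, in a table of 33539 genes from 8505C cells. The rule gave 78 genes, 49 named MRPL and 29 named MRPS. A further 29 rows with such names were pseudogenes or noncoding RNAs and were left out. 8505C is an established human cell line of anaplastic thyroid cancer, the undifferentiated form of thyroid carcinoma. The cells grew with 10% fetal bovine serum and were treated with either control siRNA (NC) or siRNA that targets POLR1F (siPOLR1F), with 3 libraries of each, and poly(A) RNA was sequenced after 24 h. The question was which genes respond when POLR1F, a subunit of RNA polymerase I, is silenced. The siRNA sequences are not used here, and all results come from 1 cell line at 1 time.

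Mitochondria carry their own ribosome, which makes the few proteins of the respiratory chain that are encoded in mitochondrial DNA. Its ribosomal RNAs are transcribed inside the organelle by the mitochondrial RNA polymerase POLRMT and not by RNA polymerase I, whereas all of its proteins are encoded in the nucleus, made in the cytosol and imported. Many of these proteins have a counterpart in the bacterial ribosome, and the others were added in the course of mitochondrial evolution. MRPS30 and MRPS18A carry small subunit names but sit in the large subunit, and MRPS36 is now counted as a component of the 2-oxoglutarate dehydrogenase complex and not of the ribosome.

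All 78 genes passed the filter on low values (a mean of at least 0.5 over the 6 libraries in FPKM, fragments per kilobase of gene scaled to library size). In siPOLR1F, 3 of them rose and 2 fell at an adjusted p under 0.05 in edgeR's quasi-likelihood test. The genes that rose were MRPL58, a peptidyl-tRNA hydrolase built into the large subunit that frees stalled ribosomes, MRPS34, a mitochondria-specific protein needed for a stable small subunit, and MRPL47, a large subunit protein with a bacterial counterpart. The genes that fell were MRPS14 and MRPS16, small subunit proteins that both have bacterial counterparts. The other 73 were not called. The share that rose was 3.85%, beside 10.3% of all 13564 genes tested, and the share that fell was 2.56%, beside 6.94%.

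The 5 called genes are introduced by the DNA around their transcription starts, because the promoters of nuclear genes for mitochondrial proteins are known for binding sites of ETS factors such as GABP, of YY1 and of NRF1. The windows come from RefSeq (GRCh38.p14), each with 100 bases before and 20 bases after the start, 5′ to 3′ on the strand of the gene. Capitals mark the ETS core CCGGAAG or its other-strand form CTTCCGG, and the YY1 core AAGATGG or its other-strand form CCATCTT. The coordinates are chr17:75012570-75012689 (plus strand) for MRPL58, chr16:1773115-1773234 (minus) for MRPS34, chr3:179604627-179604746 (minus) for MRPL47, chr1:175023406-175023525 (minus) for MRPS14 and chr10:73252625-73252744 (minus) for MRPS16.
MRPL58: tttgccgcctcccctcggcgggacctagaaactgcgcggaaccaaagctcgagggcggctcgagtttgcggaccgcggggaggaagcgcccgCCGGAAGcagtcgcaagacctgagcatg
MRPS34: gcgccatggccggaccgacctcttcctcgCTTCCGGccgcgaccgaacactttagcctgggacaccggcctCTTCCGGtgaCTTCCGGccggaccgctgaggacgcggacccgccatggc
MRPL47: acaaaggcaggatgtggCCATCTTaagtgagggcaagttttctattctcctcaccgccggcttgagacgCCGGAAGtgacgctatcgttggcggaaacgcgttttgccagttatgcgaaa
MRPS14: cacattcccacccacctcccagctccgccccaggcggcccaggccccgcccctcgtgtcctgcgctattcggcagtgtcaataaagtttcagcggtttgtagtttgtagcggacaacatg
MRPS16: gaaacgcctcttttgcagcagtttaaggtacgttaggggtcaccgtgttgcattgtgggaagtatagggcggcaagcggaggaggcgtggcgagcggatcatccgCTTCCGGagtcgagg

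The MRPS34 window held the ETS core 3 times, beginning at positions -71, -29 and -19 from the start. MRPL58 had it at -8, MRPL47 at -31 with a YY1 core at -83, and MRPS16 at 6 after the start. In the full RefSeq window, from 250 bases before to 50 after the start, MRPL58 had another ETS core at -193 and MRPS16 a YY1 core at -222. None of the 3 cores was found in the window of MRPS14. The third core searched, on both strands like the others, was that of NRF1 (GCGCATGC or GCATGCGC). The ETS and YY1 cores can share their letters AAG, which occurred in 0 of the family's windows.

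Across the family, 69 of the 78 genes had a RefSeq window. The ETS core was in 30 of them (43.5%), compared with 12.2% of 27305 genes with a window, 23.6% of the genes tested here and 34.8% of 66 cytosolic ribosomal protein genes. The YY1 core was in 24 (34.8%), compared with 7.11%, 9.81% and 13.6%. The NRF1 core was in 6 (8.70%), compared with 3.68%, 6.68% and 4.55%. ETS and YY1 cores occurred together in 9 windows (13.0%), beside 0.989% of all genes and 2.17% of the genes tested. At least 1 of the 3 cores was found in 46 windows (66.7%), beside 20.7% of all genes, 34.96% of the genes tested and 33 of the 66 cytosolic ribosomal protein genes. Over all 35116 windows the shares were 10.3% for ETS, 5.84% for YY1 and 3.05% for NRF1. These are matches of letters and not measured binding.

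The median response lay close to 0 with or without a core. Of all genes tested, 10.3% rose and 6.94% fell. The 30 genes with the ETS core had a median log2 fold change of -0.02, and 3 rose and 1 fell. The 39 without it had a median of 0.05, with 0 higher and 1 lower. The 24 genes with the YY1 core had a median of 0.05, and 1 rose and 1 fell, while the 45 without it had a median of -0.0079, with 2 higher and 1 lower. All 3 genes that rose had an ETS core, a count too small to compare the groups, and no test was made.

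The libraries fitted their labels in the targeted gene. POLR1F had FPKM values of 8.80, 8.42 and 7.64 in NC and 2.09, 1.42 and 1.51 in siPOLR1F, with no overlap, and a log2 fold change of -2.30 (SE 0.15, adjusted p = 9.76e-05 by edgeR). Depth was alike, with 60576788 to 63038378 counts per library. Of the defining markers, the thyroid factor NKX2-1 had a mean FPKM of 45.2 in NC and 27.5 in siPOLR1F and fell, whereas PAX8 (0.543) and FOXE1 (0.209) were low and TG, TSHR, SLC5A5 and the leukocyte gene PTPRC near 0. The keratins KRT8 (117) and KRT18 (162) were high in NC, KRT19 (0.729) and EPCAM (0.762) low and CDH1 near 0. Vimentin (VIM) had 671 and FN1 52.2 in NC. KRT8 and FN1 fell, with log2 fold changes of -0.25 and -0.44 (adjusted p = 0.0197 and 0.0126 by edgeR). Over all tested genes, 1391 rose and 942 fell in siPOLR1F, a split that turned to 1114 higher and 1475 lower with upper-quartile scaling factors. Whether the libraries of a group stem from separate cultures is not stated in the labels, so p-values here reflect only how far these libraries differ, which could be technical. The values are relative to each library's total, so a change in RNA per cell that all genes share cannot be told apart from no change.

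Within the control cells, the family spanned a 30.9-fold range of FPKM, a scale that corrects for gene length, from 2.46 to 75.9 with a median of 17.3. The median of all genes tested was 4.72. Most of these proteins are present once in each ribosome, but their FPKM values were spread across this range, in the large subunit (3.35 to 75.9) and in the small (2.46 to 49.2). The gene lengths behind the FPKM were not given, and they affect this order. In NC replicate 1, MRPS25 had 5196 counts and an FPKM of 4.02, and MRPS26 had 3295 counts and an FPKM of 46.1. How much of the range comes from the lengths was not tested. Together, the 78 genes took 0.416%, 0.436% and 0.432% of the counts in NC and 0.429%, 0.430% and 0.441% in siPOLR1F, and the groups overlapped.

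**Figure D1:**
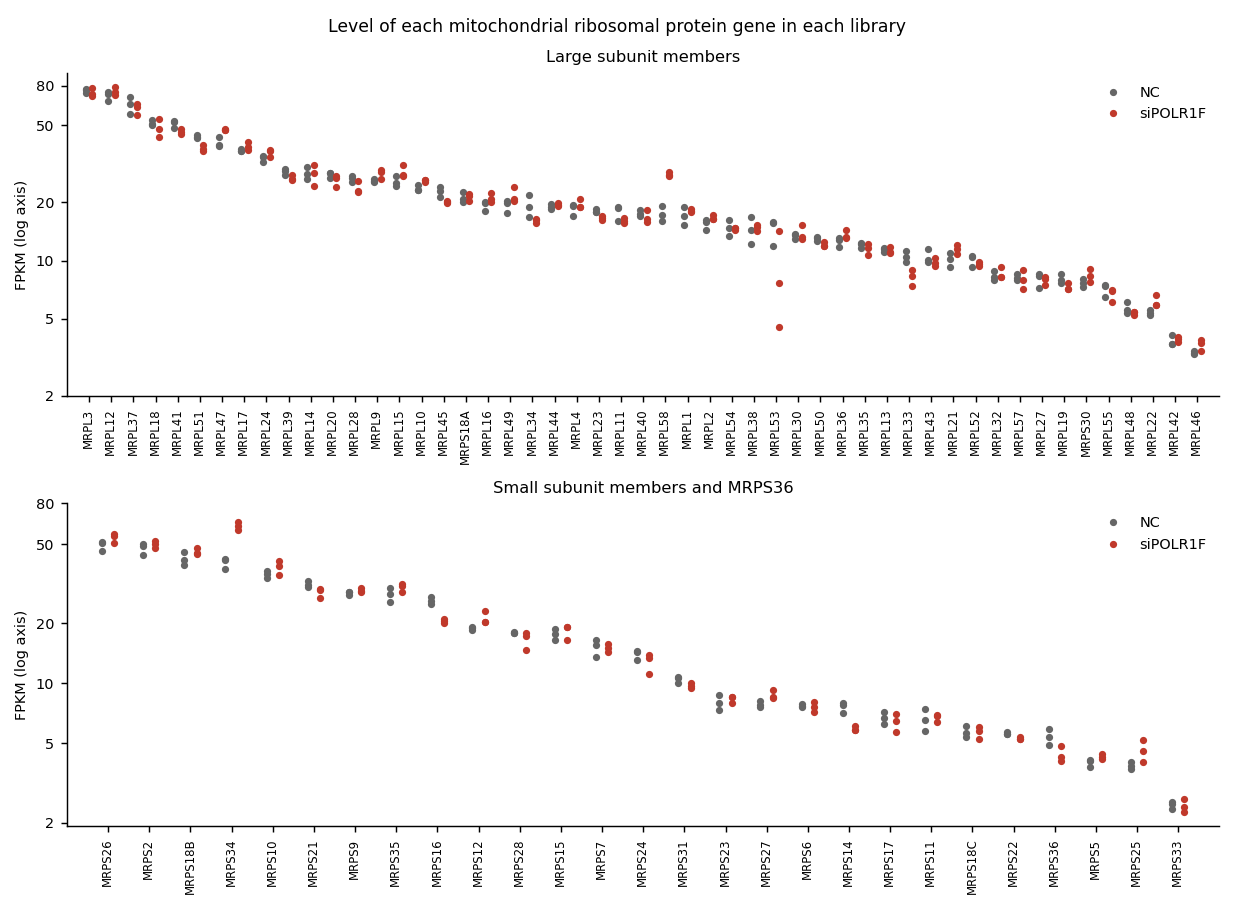
FPKM (log axis) of each mitochondrial ribosomal protein gene in each library, ordered by its mean in NC, with large subunit genes above and small subunit genes and MRPS36 below. Grey points are the 3 NC libraries and red points the 3 siPOLR1F libraries. The points of most genes lie together, and MRPL58 and MRPS34 stand out with red points above grey.

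The 6 genes with the highest mean FPKM in NC were MRPL3, MRPL12, MRPL37, MRPL18, MRPL41 and MRPS26. MRPL3, which lies close to the peptidyl transferase centre, had 73.7, 77.5 and 76.3 in NC and 73.0, 71.0 and 78.4 in siPOLR1F. MRPL12, which forms the flexible stalk where translation factors bind, had 66.8, 74.1 and 72.3 in NC against 74.2, 72.0 and 79.4 in siPOLR1F. The first 2 genes in this order did not differ beyond their spread in NC, 75.9 ± 1.95 and 71.1 ± 3.85 (SD, n = 3). MRPL37, a mitochondria-specific protein, followed at 63.8 ± 6.48 and MRPL18 at 51.5 ± 1.62. MRPL41 (51.1 ± 2.45) and MRPS26 (49.2 ± 2.77), both mitochondria-specific, came next, and their NC values overlapped those of MRPL18.

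None of these 6 was called, and their log2 fold changes lay close to 0. MRPL3 had -0.03 (SE 0.05, adjusted p = 0.782 by edgeR), MRPL12 0.09 (SE 0.06, adjusted p = 0.378) and MRPL37 -0.05 (SE 0.08, adjusted p = 0.697). MRPL18 had -0.07 (SE 0.08, adjusted p = 0.562 by edgeR) and MRPS26 0.14 (SE 0.07, adjusted p = 0.2). For MRPL41, all 3 siPOLR1F values (44.9, 46.0 and 47.7) were below the NC values (48.3, 52.8 and 52.1), but its log2 fold change of -0.14 (SE 0.07) had an edgeR adjusted p of 0.201.

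At the other end of the FPKM order stood MRPS33, MRPL46, MRPL42 and MRPS25, all without a bacterial counterpart. This order is not that of the counts. MRPL42 (4731, 4086 and 4228 counts in NC) and MRPS25 (5196, 4614 and 4926) had more counts than MRPL41 (1979, 2078 and 2106). MRPS33 and MRPL46 had fewer counts than MRPL41. MRPS33 had FPKM values of 2.55, 2.34 and 2.49 in NC and 2.64, 2.27 and 2.39 in siPOLR1F. Its log2 fold change was -0.0079 (SE 0.10, adjusted p = 0.968 by edgeR). MRPL46 had a mean FPKM of 3.35 ± 0.0698 in NC against 3.69 ± 0.254 in siPOLR1F (SD, n = 3), and MRPL42 3.84 ± 0.230 and 3.92 ± 0.115. MRPS25 had the highest log2 fold change of the genes that were not called and is described with MRPL33. The log2 fold change of MRPL46 was 0.15 (SE 0.08, adjusted p = 0.227 by edgeR) and that of MRPL42 0.04 (SE 0.07, adjusted p = 0.728).

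The response of the family was narrow. The log2 fold changes ran from -0.71 to 0.69 with a median of 0.0023 (all genes tested: -0.0144), and 39 were above 0 and 39 below. The middle 50% lay between -0.09 and 0.12, compared with -0.18 and 0.16 in all genes. In 67 of the 78 genes (85.9%) the size of the log2 fold change was under 0.2, compared with 56.9% of all genes tested and 62.3% of the 8714 genes within the same range of FPKM. All 3 siPOLR1F values lay above all 3 NC values in 11 genes (14.1%, background 18.9%) and below them in 12 (15.4%, background 19.0%), and in the other 55 the groups overlapped. An unadjusted p under 0.05 was found for 15 genes (19.2%), beside 32.9% of all genes tested. Spread between replicates was small, with a median coefficient of variation of 5.61% in NC and 4.96% in siPOLR1F.

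**Figure D2:**
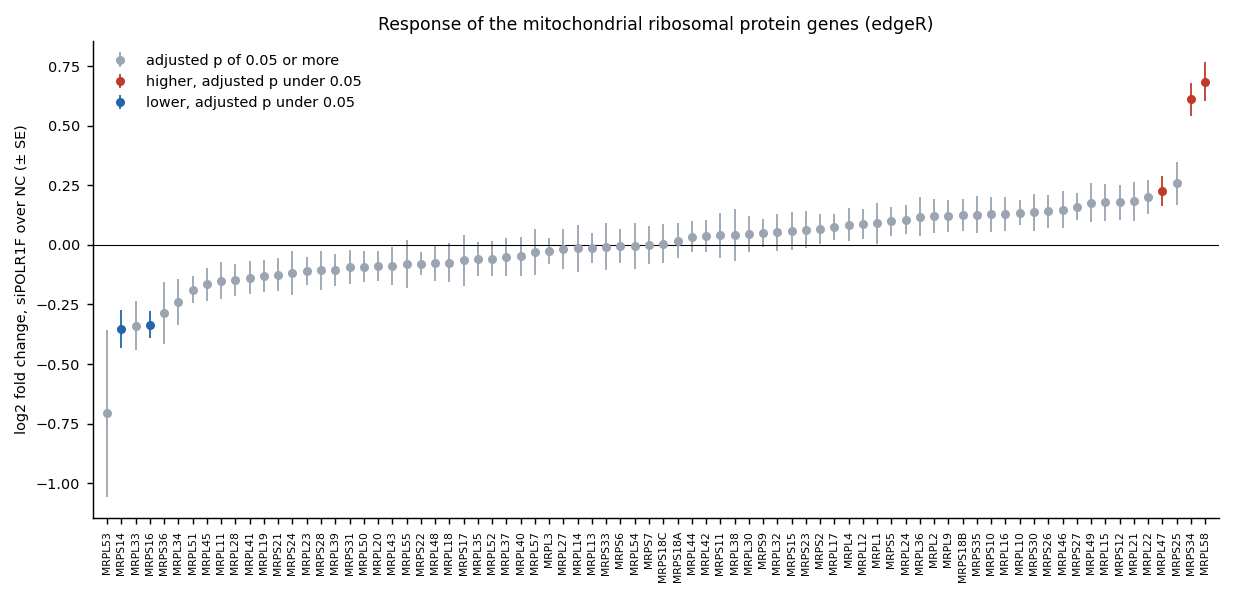
Log2 fold change of each mitochondrial ribosomal protein gene, siPOLR1F over NC, from edgeR, in rising order. Bars show ± SE, red and blue points passed the test and grey points did not. MRPL58 and MRPS34 lie apart at the upper end, and MRPL53 has the lowest value with the longest bar.

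Both subunits had medians close to 0. Over all genes tested, 10.3% rose and 6.94% fell. Of 51 large subunit genes, 2 rose (3.92%) and 0 fell, with a median log2 fold change of -0.0115. Of 26 small subunit genes, 1 rose (3.85%) and 2 fell (7.69%), with a median of 0.04. The 48 genes with a bacterial counterpart had 1 higher (2.08%) and 2 lower (4.17%) and a median of 0.03. The 29 mitochondria-specific genes had 2 higher (6.90%) and 0 lower and a median of -0.0079. MRPS36, which belongs to neither group, had 5.92, 5.37 and 4.92 in NC and 4.07, 4.29 and 4.86 in siPOLR1F, lower in each library. Its log2 fold change of -0.29 (SE 0.13) did not pass the test (adjusted p = 0.169 by edgeR). Differences between these groups were not tested.

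MRPL58 (ENSG00000167862, GRCh38 chromosome 17, 75012670 to 75021261, plus strand) had the largest rise of the family. Its FPKM was 16.03, 19.1 and 17.3 in NC and 27.7, 27.5 and 28.8 in siPOLR1F. Every siPOLR1F value was above every NC value, and the gap between the groups was larger than the range within either. The means were 17.5 ± 1.53 and 27.98 ± 0.733 (SD, n = 3), a log2 fold change of 0.69 (SE 0.08, adjusted p = 0.00116 by edgeR), or 60.9% higher. In GENCODE 29 its exons share no base with another gene.

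MRPS34 (ENSG00000074071, chromosome 16, 1771890 to 1773150, minus strand) came next. Its FPKM was 37.4, 42.2 and 41.7 in NC and 58.8, 61.3 and 64.4 in siPOLR1F, again without overlap. The means were 40.4 ± 2.67 and 61.5 ± 2.79 (SD, n = 3), a log2 fold change of 0.61 (SE 0.07, adjusted p = 0.000981 by edgeR), or 52.8% higher. With this rise the gene moved from below MRPL41, MRPL18 and MRPS26 in NC to above them in siPOLR1F. Its exons share no base with another gene in GENCODE 29. In the deposited coordinates, its span overlaps that of EME2 on the other strand by 341 bases. EME2 had a mean FPKM of 2.45 in NC and 2.02 in siPOLR1F.

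MRPL47 (ENSG00000136522, chromosome 3, 179588285 to 179604640, minus strand), which sits near the exit of the peptide tunnel, rose by a smaller step. Its FPKM was 39.1, 43.5 and 39.7 in NC against 47.3, 47.1 and 48.1 in siPOLR1F. The groups did not overlap, and the siPOLR1F values were close together. The log2 fold change was 0.23 (SE 0.06, adjusted p = 0.0386 by edgeR). In GENCODE 29 it shares 9.05% of its exon bases with ACTL6A on the other strand, which had a mean FPKM of 40.3 in NC and was not called (0.05, adjusted p = 0.498). The call was lost without NC replicate 1 (adjusted p = 0.0893), NC replicate 3 (0.115) or siPOLR1F replicates 1, 2 and 3 (0.102, 0.093 and 0.12), without the filter on low values (0.0968) and with upper-quartile factors (0.0729).

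MRPS16 (ENSG00000182180, chromosome 10, 73248843 to 73252644, minus strand) fell. Its FPKM was 25.1, 25.9 and 27.1 in NC and 20.04, 21.05 and 20.5 in siPOLR1F, with no overlap and little spread. The log2 fold change was -0.33 (SE 0.06, adjusted p = 0.00623 by edgeR), and the level decreased by 20.7%. In GENCODE 29 it shares 14.1% of its exon bases with DNAJC9-AS1 on the other strand and 0.716% with DNAJC9.

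MRPS14 (ENSG00000120333, chromosome 1, 175010789 to 175023425, minus strand) fell by a similar step. Its FPKM was 7.997, 7.81 and 7.10 in NC and 5.86, 6.14 and 5.85 in siPOLR1F, and the groups did not overlap. The log2 fold change was -0.35 (SE 0.08, adjusted p = 0.0211 by edgeR). It shares 13.5% of its exon bases in GENCODE 29 with CACYBP on the other strand, which was not called (0.09, adjusted p = 0.312). The call was lost without the filter (0.0644) and without NC replicates 1 and 2 (0.0566 and 0.0517) or siPOLR1F replicates 1, 2 and 3 (0.0704, 0.0565 and 0.0823).

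MRPL58, MRPS34 and MRPS16 were called under all 15 alternatives tried, with their highest adjusted p at 0.0106, 0.00927 and 0.0305. For each of the 5 called genes the exact two-sided permutation p over libraries was 0.1, the smallest that 3 against 3 can give.

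**Figure D3:**
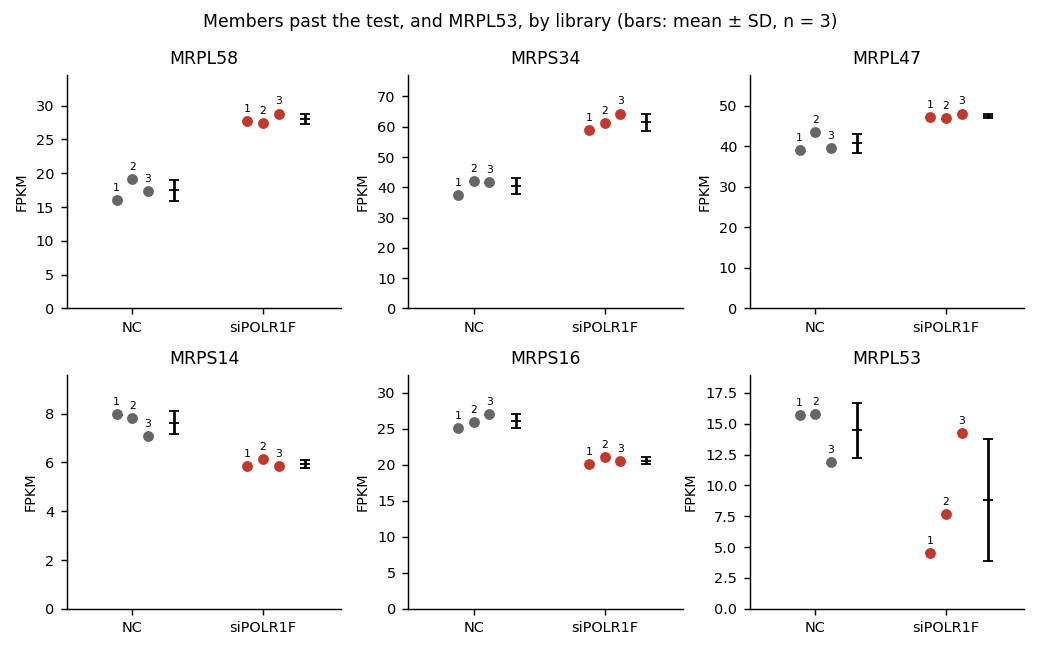
FPKM of the 5 called genes and of MRPL53 in each library, with replicate numbers above the points and the mean ± SD (n = 3) beside them, axes from 0. The groups do not overlap in the 5 called genes, and in MRPL53 the third siPOLR1F library lies among the NC values.

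MRPL53, a mitochondria-specific large subunit protein, had the lowest log2 fold change of the family and did not pass the test. Its FPKM was 15.7, 15.8 and 11.9 in NC and 4.55, 7.66 and 14.3 in siPOLR1F. Replicates 1 and 2 of siPOLR1F were below all NC values and replicate 3 was within their range. These values rested on 759, 732 and 569 counts in NC, against 217, 370 and 680 in siPOLR1F. The coefficient of variation in siPOLR1F, 56.2%, was the highest of the family. The log2 fold change was -0.71 (SE 0.35, adjusted p = 0.199 by edgeR), and without siPOLR1F replicate 3 it was -1.24 (adjusted p = 0.0274), while without siPOLR1F replicate 1 it was -0.40 (adjusted p = 0.372).

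The MRPL53 gene lies almost wholly within the span of a neighbour on the same strand. In GENCODE 29, where MRPL53 has 1344 exon bases, 45.2% of them are shared with CCDC142. The deposited span of MRPL53 (74471982 to 74472687) is shorter, so this share need not hold for the counts. By that span 702 bases overlap CCDC142, and 706 overlap the noncoding RNA ENSG00000286883 on the other strand. Reads could be divided between these genes by the authors' counting. ENSG00000286883 had a mean FPKM of 2.08 in NC and 1.86 in siPOLR1F and was not called (adjusted p = 0.784 by edgeR). CCDC142 had 2.25, 2.89 and 3.36 in NC and 4.10, 3.86 and 3.42 in siPOLR1F. All its siPOLR1F values were above its NC values, with a log2 fold change of 0.43 (SE 0.14, adjusted p = 0.0703 by edgeR). The library with the highest CCDC142 value was the one with the lowest MRPL53 value in both groups (NC replicate 3 and siPOLR1F replicate 1). The part of these overlaps in the MRPL53 values was not tested.

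Among the other genes that were not called, MRPL33 had the lowest log2 fold change and MRPS25 the highest. MRPL33, with a bacterial counterpart, had 11.2, 10.4 and 9.87 in NC and 8.94, 8.33 and 7.42 in siPOLR1F. All siPOLR1F values were lower, with a log2 fold change of -0.34 (SE 0.10, adjusted p = 0.0564 by edgeR), and the gene was called in 6 of the 15 alternatives (adjusted p = 0.0287 with DESeq2). MRPS25, a mitochondria-specific protein of the small subunit, had 4.02, 3.73 and 3.87 in NC against 5.19, 4.599 and 4.05 in siPOLR1F. The groups were separated by only a small gap, and the log2 fold change was 0.26 (SE 0.09, adjusted p = 0.0859 by edgeR), or 0.34 without siPOLR1F replicate 3 (adjusted p = 0.0415). DESeq2 called MRPS25 as well (adjusted p = 0.0322). MRPL51, singled out after its values were seen because it lay just outside the threshold, had 43.6, 44.7 and 43.0 in NC and 37.0, 39.6 and 38.0 in siPOLR1F, for a log2 fold change of -0.19 (SE 0.06, adjusted p = 0.0548 by edgeR), and it was called in 6 of 15 alternatives (adjusted p = 0.0349 with DESeq2).

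The genes of the family are scattered over 21 chromosomes, with at most 8 on 1 chromosome (1, 2 and 17). Of the 78, 31 have another gene that starts within 1000 bases on the other strand, and for 25 of them that gene is protein-coding. MRPL46 and MRPS11 are such a pair, with starts 64 bases apart. MRPL46 had a log2 fold change of 0.15 (adjusted p = 0.227 by edgeR) and MRPS11 0.04 (adjusted p = 0.809), although MRPL46 had a mean FPKM of 3.35 and MRPS11 6.58 in NC.

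The opposite genes at the called members did not pass the test. EME2, an endonuclease subunit whose start is 340 bases from that of MRPS34, had a log2 fold change of -0.27 (SE 0.35, adjusted p = 0.635 by edgeR), where MRPS34 had 0.61. NDUFB5, a subunit of respiratory complex I that starts 50 bases from MRPL47, had 0.04 (SE 0.06, adjusted p = 0.668 by edgeR), and ENSG00000288698, 167 bases from MRPL47, was not tested. DNAJC9-AS1 (ENSG00000227540), a noncoding RNA 147 bases from MRPS16 that does not overlap its span, had -0.32 (SE 0.23, adjusted p = 0.369 by edgeR). Another gene of that name, ENSG00000236756, overlaps the span of MRPS16 by 3802 bases. It had a mean FPKM of 0.114 in NC and was not tested. Of 33 such neighbours 25 were tested, and 1 rose and 0 fell, beside 10.3% and 6.94% of all genes tested. That gene, PPP1R10, a regulatory subunit of a protein phosphatase named here after its values were seen, had 0.44 (SE 0.07, adjusted p = 0.00567 by edgeR), whereas MRPS18B, 596 bases away, had 0.13 (adjusted p = 0.221).

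The rest of the mitochondrial translation system was followed in 5 lists. Of 5 mitochondrial ribosomal proteins with other names, 0 were called, with 2 at an unadjusted p under 0.05 and 1 higher with DESeq2. The most abundant, AURKAIP1, had a mean FPKM of 49.99 ± 2.88 in NC against 49.9 ± 2.08 in siPOLR1F (SD, n = 3). GADD45GIP1 had 39.8 ± 0.322 and 44.1 ± 1.31, a log2 fold change of 0.15 (adjusted p = 0.0817 by edgeR).

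Of 32 genes for assembly of the ribosome and maturation of its RNA, 4 rose (12.5%, beside 10.3% of all genes) and 1 fell (3.13%, beside 6.94%), with a median of 0.06. The shares of this list were thus near those of all genes. RCC1L, which takes part in maturing the large subunit RNA, went from 6.19 ± 0.246 to 7.87 ± 0.525 FPKM (SD, n = 3), a log2 fold change of 0.35 (adjusted p = 0.0157 by edgeR). NGRN, of the same pseudouridine synthase module, had 0.26 (adjusted p = 0.0218 by edgeR). NSUN4, an RNA methyltransferase that joins the subunits with MTERF4, had 0.27 (adjusted p = 0.0419), and MTG2, an assembly GTPase of the large subunit, 0.26 (adjusted p = 0.0493). NOA1, a GTPase needed for the small subunit, fell from 13.1 ± 0.866 to 10.3 ± 0.506 FPKM, a log2 fold change of -0.35 (adjusted p = 0.0168 by edgeR). These calls were sensitive to single libraries and to the processing. The number of higher genes in the list was 2, 3 and 0 without NC replicates 1, 2 and 3 and 2, 0 and 0 without siPOLR1F replicates 1, 2 and 3. MTG2 was called in 4 of 15 alternatives and NSUN4 in 4 of 14. Both lost their calls with limma, without the filter on low values and with upper-quartile factors. RCC1L and NGRN were each called in 11 of 15. NOA1 lost its call without NC replicate 3, siPOLR1F replicate 1 or siPOLR1F replicate 3 (adjusted p = 0.0581, 0.0626 and 0.0588) and without the filter (0.0654).

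Of 18 translation factors, 1 rose (5.56%, beside 10.3% of all genes) and 0 fell (beside 6.94%), with a median of 0.03. LETM1, an ion exchanger of the inner membrane that binds the mitochondrial ribosome, had 5.80, 7.75 and 7.04 in NC against 9.56, 9.498 and 9.99 in siPOLR1F. The groups did not overlap, and the log2 fold change was 0.50 (SE 0.10, adjusted p = 0.0106 by edgeR), and the call was lost without the filter on low values (adjusted p = 0.0626). The elongation factor TUFM, the most abundant of the list, had a mean FPKM of 118 in NC and 126 in siPOLR1F and was not called (adjusted p = 0.222).

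Of 15 genes for mitochondrial transcription and its nuclear regulators, 14 were tested. Of these, 5 rose (35.7%, beside 10.3% of all genes) and 1 fell (7.14%, beside 6.94%). The difference from all genes was not tested. PPARGC1B and PPRC1, the coactivators of the PGC-1 family that were tested, had the largest rises. PPARGC1B had 0.604, 0.822 and 0.694 in NC and 1.33, 1.17 and 1.46 in siPOLR1F, for a log2 fold change of 0.91 (SE 0.14, adjusted p = 0.00373 by edgeR). PPRC1 had 7.39, 9.13 and 8.71 in NC and 12.8, 11.7 and 12.8 in siPOLR1F, for a log2 fold change of 0.57 (SE 0.09, adjusted p = 0.00372 by edgeR). In neither gene did the groups overlap, and both were called under each alternative in which they were tested. PPARGC1A, of the same family, was below the filter and was not tested. Its low values went the other way without overlap. They were 0.147, 0.193 and 0.188 FPKM in NC and 0.0882, 0.0696 and 0.066 in siPOLR1F.

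Of the factors that give the cores their names, YY1 rose from 13.7 ± 0.0506 to 15.9 ± 0.372 FPKM (SD, n = 3), a log2 fold change of 0.23 (adjusted p = 0.0168 by edgeR). Its call was lost without NC replicate 3, siPOLR1F replicate 1 or siPOLR1F replicate 3 (highest adjusted p = 0.0666 by edgeR). The ETS factor GABPA, named here after its values were seen like GABPB1 and NRF1, had -0.22 (adjusted p = 0.204 by edgeR), GABPB1 0.13 (adjusted p = 0.258) and NRF1 0.07 (adjusted p = 0.607). The nuclear receptor ESRRA rose by 0.32 (adjusted p = 0.0324 by edgeR) and POLRMT by 0.27 (adjusted p = 0.0226), while the transcription factor MTERF2 fell, at -0.46 (adjusted p = 0.0485). Of 15 alternatives, ESRRA was called in 9 and POLRMT and YY1 each in 12. Left-out libraries gave 4, 5 and 3 higher genes in this list without NC replicates 1, 2 and 3 and 3, 4 and 2 without siPOLR1F replicates 1, 2 and 3, and MTERF2 lost its call without any of the 6 (adjusted p from 0.064 to 0.14) and without the filter (0.106), and was called in 6 of 14 alternatives.

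The 15 mitochondrially encoded genes had a median log2 fold change of -0.14, with 13 below 0 and 2 above. Of these genes, 0 rose (beside 10.3% of all genes) and 2 fell (13.3%, beside 6.94%). In 6 of them (40.0%, background 19.0%) all 3 siPOLR1F values lay below all 3 NC values, and in 0 above them (background 18.9%). Genes on mitochondrial DNA together took 5.15%, 4.93% and 4.99% of the counts in NC and 4.85%, 4.41% and 4.32% in siPOLR1F. The difference from all genes was not tested. MT-ND4, a subunit of complex I, had -0.19 (SE 0.04, adjusted p = 0.022 by edgeR) and MT-ATP8, of the ATP synthase, -0.17 (SE 0.05, adjusted p = 0.0431). The ribosomal RNAs of the mitochondrial ribosome, which are read in poly(A) RNA only in part, were not called. MT-RNR1, of the small subunit, had 0.04 (SE 0.07, adjusted p = 0.703 by edgeR) and MT-RNR2, of the large subunit, 0.08 (SE 0.08, adjusted p = 0.525). The number of genes that fell was 0, 2 and 1 without NC replicates 1, 2 and 3 and 6, 0 and 0 without siPOLR1F replicates 1, 2 and 3.

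The cytosolic ribosomal proteins were the closest family for comparison. Of 84 genes, 81 were tested, and 0 rose (beside 10.3% of all genes) and 1 fell (1.2%, beside 6.94%). An unadjusted p under 0.05 was found for 8 (9.88%, beside 32.9%). Their log2 fold changes had a median of -0.03, with the middle 50% between -0.07 and -0.0014, and 97.5% were under 0.2 in size. The gene that fell was RPS27L, a p53-responsive relative of RPS27, with -0.45 (SE 0.11, adjusted p = 0.0303 by edgeR). The mitochondrial family was less abundant, with a median FPKM of 17.3 beside 182 in NC, and its fold changes were spread more widely. The difference between the families was not tested.

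**Figure D4:**
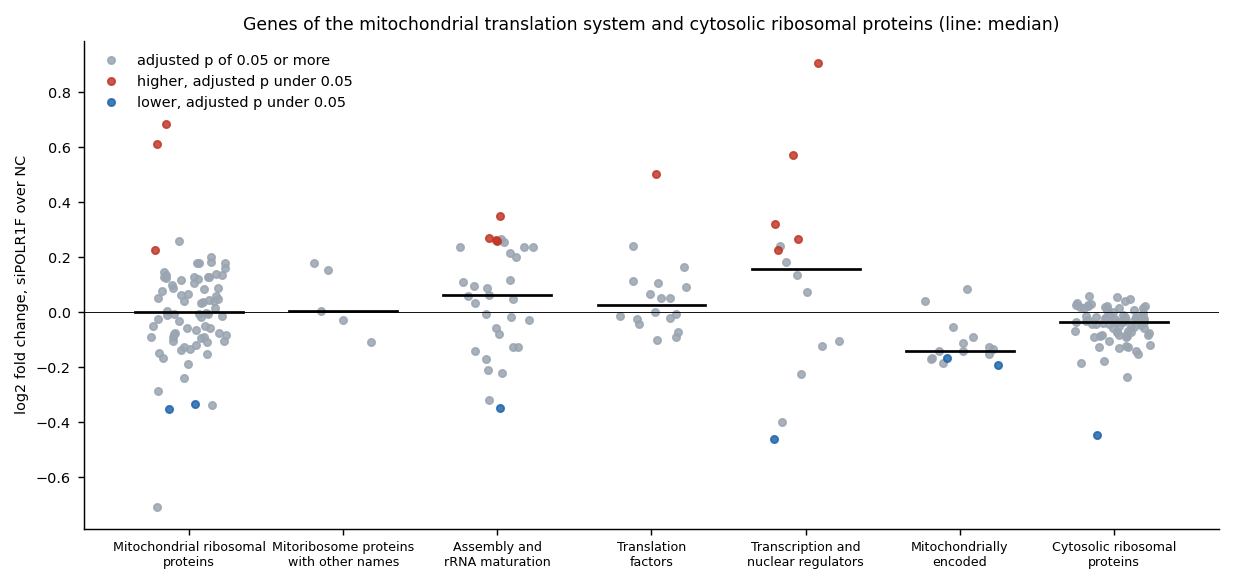
Log2 fold changes (siPOLR1F over NC, edgeR) of the tested genes in the mitochondrial ribosomal protein family, the 5 related lists and the cytosolic ribosomal proteins. Each point is a gene, red and blue points passed the test, and the black line is the median of the list, which lies highest for the transcription list (0.16) and lowest for the mitochondrially encoded genes (-0.14).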

How the data were processed

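Poly(A) RNA (1 µg of total RNA, paired reads of 150 bases, per the labels' protocols) was measured in 6 libraries, grouped by the labels. The submitters' processing notes name fastp, HISAT2, StringTie and GRCh38 (hg38). Their versions, the gene annotation and the strand setting were not given in the sources used here, so reads of overlapping genes may be divided between them. The authors deposited whole-number counts and FPKM, which matched the counts within 0.0202% (median, 11428 genes). Counts were tested with edgeR 4.0.16 (R 4.3.3; TMM, quasi-likelihood, two-sided, Benjamini-Hochberg over 13564 genes that held 99.4% of the counts, threshold 0.05). The SE was the log2 fold change over the square root of F. In counts simulated for this comparison over 13564 genes, 30% of 50 genes lowered by 0.5 (log2 change -0.5) and 56% of 50 raised by 0.5 were called, and 11 of 126 calls were false. Alternatives used DESeq2 1.42.0, limma 3.58.1, other filters and scalings, a replicate block and left-out libraries.

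The members and lists were chosen with earlier results of these data known. Named genes were every called member, the 6 highest and 4 lowest in NC, the 3 largest rises and falls, the opposite-start genes of called members, and up to 6 called genes (or the 2 most abundant) per list. Exon overlaps used GENCODE 29 and promoters RefSeq (GRCh38.p14). By chi-square tests of the counts, every pair of libraries differed beyond sampling noise.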

Additional observations from a re-analysis of the deposited data

How the results depend on the processing

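The 5 called genes kept their direction under all 15 alternatives, and MRPL58, MRPS34 and MRPS16 stayed past the threshold in each, while MRPL47 did so in 8 and MRPS14 in 9. The number of mitochondrial ribosomal protein genes that fell was 2. It was 4 with DESeq2, limma on log2(FPKM + 1) or log2(FPKM + 0.1), a mean FPKM of at least 5 or upper-quartile factors. It was 1 with no filter, and 1 to 2 with a library left out. The number that rose was 3. It was 4 with DESeq2, 2 with no filter or upper-quartile factors, and 2 to 3 with a library left out. The family's median log2 fold change was 0.0023, and -0.0471 with upper-quartile factors, which moved the median of all genes to -0.0639. In the related lists together, 10 genes rose and 4 fell. With no filter 3 rose and 1 fell, with upper-quartile factors 8 fell, and with a library left out 3 to 9 rose and 0 to 6 fell. Over all genes, 663 rose and 313 fell with no filter, and left-out libraries gave 730 to 1326 higher and 423 to 841 lower. The replicate numbers share only a number in the labels: deviations of same-numbered libraries correlated at 0.430, -0.162 and 0.429, and NC replicate 3 with siPOLR1F replicate 2 at 0.423. With the replicate number as a block, 4 mitochondrial ribosomal protein genes rose and 3 fell, 8 genes of the related lists fell, and 1517 genes rose and 1125 fell in all. The block added MRPL33 and MRPS25 (adjusted p = 0.0428 and 0.0451) and ended the call of MTERF2 (0.0646). On simulated counts with 3 libraries a group, 30% and 56% of genes were recovered at log2 changes of -0.5 and 0.5. At -1 and 1, 68% and 76% were recovered, so changes of these sizes can be missed. The simulation changed only 50 genes at each size, drawn from genes of all levels. It gave 126 calls, beside 2333 in the data. Its rates therefore do not say how often a change in this family would be missed.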

Other observations

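The heptamers TCGGAGA and CCGACTT, taken from an earlier scan of these data, were searched in the GENCODE 29 protein-coding transcripts of each gene. TCGGAGA was found in 4 of the 78 mitochondrial ribosomal protein genes (MRPL15, MRPL22, MRPL38 and MRPL53, named after their values were seen), or 5.13%, compared with 12.9% of 11274 genes. CCGACTT was found in 2 (MRPL4 and MRPL40), or 2.56%, compared with 8.71%. The called genes held neither. The longest transcript of these genes had a median of 1516 bases, beside 3409 bases over all genes searched, so the shares are not at equal length.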
